A study of Mus musculus with 2 samples.

Results

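Cell cycle inhibitors and genes of the p53 pathway were examined in thymic stromal cells grown either as reaggregates or as flat cultures. The 9 genes were the CIP/KIP inhibitors Cdkn1a, Cdkn1b and Cdkn1c, the INK4 inhibitors Cdkn2a, Cdkn2b and Cdkn2c, the transcription factor gene Trp53, and its targets Mdm2 and Ccng1. They were found by gene symbol, or by the gene of the transcript accession, among the probes of a mouse expression array. Of 41174 non-control probes, which name 19505 genes, 15 belonged to these 9 genes, and all 15 were measured well enough to be tested.

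RNA came from stromal cells of C57BL/6 mouse fetal thymus lobes, which had been kept in organ culture with 1.35 mM deoxyguanosine, an agent that depletes haematopoietic cells. The lobes were then dissociated, and the cells were grown for 72 h either in reaggregation thymus organ culture (RTOC), in which stromal cells form a three-dimensional aggregate, or in 2D culture. On each of 2 two-colour arrays, RTOC RNA labelled with Cy5 was hybridised together with 2D culture RNA labelled with Cy3. One array held cells of lobes taken at E14.5 (E, embryonic day) and kept for 8 days of organ culture, and the other cells of E15.5 lobes kept for 9 days. Both arrays entered as replicates of 1 ratio, RTOC over 2D. With no dye swap, the culture and the dye cannot be told apart, nor can stage, days of organ culture and array. No sorting of the cells is described, and in these bulk samples fewer cells of a type and less RNA per cell cannot be told apart.

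CIP/KIP proteins bind complexes of cyclins with cyclin-dependent kinases (CDKs), whereas INK4 proteins bind CDK4 and CDK6 and keep them from D-type cyclins. Both families restrain the phosphorylation of the retinoblastoma protein and so entry into S phase. p53, the product of Trp53, is regulated largely through the stability of its protein, and it activates Cdkn1a as well as Mdm2, whose product is the ubiquitin ligase that marks p53 for degradation.

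The p53 response element is a pair of decamer half-sites, and a strict match to that pair, with a spacer of up to 13 bases, was present in 24 of 32851 RefSeq promoter windows of the assembly GRCm38.p6 (0.0731%), each spanning 250 bases before to 50 bases after an annotated start. Windows were available for 8 of the 9 genes, 11 windows in all, and 1 of the 11 held the match. It was the window of the upstream start of Cdkn1a. The 250 bases before that start are shown because they hold the strict match, in the gene by which p53 activity is most often read. Capitals mark the half-sites GGACTAGCTT and GAACATGTCT with the 12 bases between them, which end 41 bases before the start. They mark the strict match alone. Another decamer, tgacatgttc, follows GAACATGTCT with no spacer and is not part of the match. Which of these decamers p53 binds was not tested.
Cdkn1a, chr17:29090729-29090978, plus strand: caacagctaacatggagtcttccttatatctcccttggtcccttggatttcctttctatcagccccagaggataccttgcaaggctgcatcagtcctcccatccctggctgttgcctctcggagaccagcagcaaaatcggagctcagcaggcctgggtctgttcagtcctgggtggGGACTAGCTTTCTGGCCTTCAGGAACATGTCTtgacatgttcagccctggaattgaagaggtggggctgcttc

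The match describes letters and not binding, and the absence of a match from the other windows says only that these letters were not in them. The GC box GGGCGG, searched on both strands, was in 7 of the 11 windows and in 35.7% of all windows. CCAAT was in 6 of 11 against 37.4%. The E-box CACGTG was in 2 of 11, a window of Cdkn2c and that of Trp53, against 7.15%. The cyclic AMP response element TGACGTCA was in the Cdkn2b window alone, against 1.79%.

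Each probe is a 60-base oligonucleotide. The 3 below were each printed 10 times on the array and stand for a gene that was higher in RTOC, a gene whose difference did not pass the test and a gene that was lower.
Cdkn1b: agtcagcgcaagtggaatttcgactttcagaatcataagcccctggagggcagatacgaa
Trp53: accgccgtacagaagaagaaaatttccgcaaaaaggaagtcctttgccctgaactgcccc
Mdm2: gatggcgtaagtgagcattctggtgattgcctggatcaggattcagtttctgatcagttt

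Each inhibitor family held genes that were lower and genes that were higher in RTOC. Cdkn1a, Cdkn2a, Cdkn2b, Mdm2 and Ccng1 were lower in RTOC, Cdkn1b, Cdkn1c and Cdkn2c were higher, and Trp53 did not pass the test. Under a normexp background correction the call of Cdkn2a was lost, and with median centring that of Mdm2 as well. Levels are given as intensities after quantile normalisation, which gives the 4 channels the same distribution, and differences as the log2 ratio of RTOC over 2D culture with the SD over 2 arrays. A difference was called where limma, fitted to the 23681 probes with a detectable channel (well above background) on each array, gave a Benjamini-Hochberg adjusted p under 0.05. Of the 15 probes 5 were called higher, against 15.3% of all tested probes, and 7 were called lower, against 13.6%. With the brightest probe of each gene, 8 of the 9 genes were called, against 28.2% of the 13503 genes tested, of which 2089 were higher and 1714 lower. Cdkn2a met the detection rule through its 2D channels alone, and where both channels of both arrays had to be well above background 7 of 8 genes were called. That filter left out the Cdkn2a probe and the dimmer Cdkn1b probes. Of the 12 probes that remained 4 were called higher and 6 lower, against 2856 and 3239 of 20157 probes of the array. The ratio had the same sign on both arrays for 14 of the 15 probes and for 80.0% of all probes tested. The calls of the 8 genes, and the result for Trp53, rest on the spread shared across probes, since 1 residual degree of freedom remains per probe. No probe of the array was called when all dim probes were included in the fit, or when the methods' test, which takes each probe's own spread, was adjusted, although 10666 and 3537 probes respectively had an unadjusted p under 0.05.

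**Figure D1:**
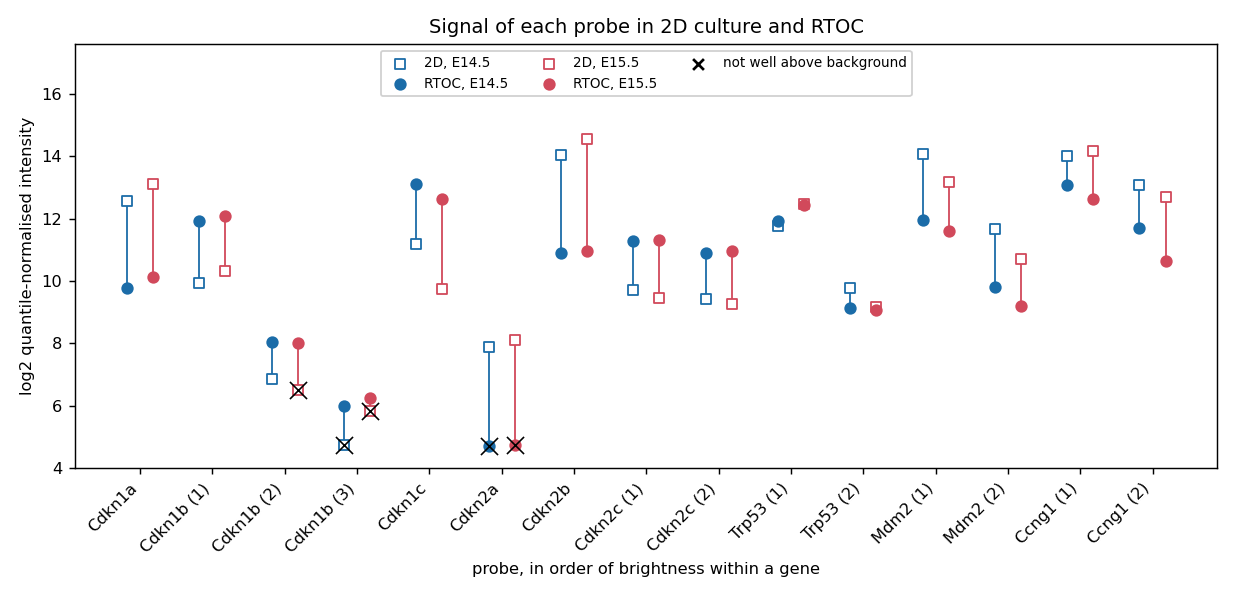
The log2 quantile-normalised intensity of each of the 15 probes is plotted for 2D culture (open squares) and RTOC (filled circles), in blue for the E14.5 array and in red for the E15.5 array, and a line joins the channels of 1 array. Crosses mark channels not well above background. The RTOC points of Cdkn1a, Cdkn2a, Cdkn2b, Mdm2 and Ccng1 lie below the 2D points, those of Cdkn1b, Cdkn1c and Cdkn2c lie above them, and those of the brightest Trp53 probe lie close to them.

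Among the CIP/KIP genes, Cdkn1a moved opposite to the other two. Cdkn1a encodes p21, the inhibitor that p53 induces after DNA damage. Its probe read 5983 (2D) and 879.5 (RTOC) at E14.5, followed by 8751 (2D) and 1126 (RTOC) at E15.5. Both RTOC values were below both 2D values. The log2 ratio was -2.86 ± 0.14 (SD, n = 2 arrays), 7.27-fold lower in RTOC, with an adjusted p of 0.00232. The 10 spots of the probe lay between -2.86 and -2.69 on the E14.5 array and between -3.08 and -2.88 on the E15.5 array, so the spots of the arrays did not overlap although their means were 0.19 apart.

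Cdkn1b encodes p27, an inhibitor that accumulates in quiescent cells and is controlled largely through protein degradation. Its brightest probe read 975.4 in 2D culture against 3905 in RTOC at E14.5, and 1269 against 4377 at E15.5. The RTOC values were the higher on each array, and the groups did not overlap. This gave a log2 ratio of 1.89 ± 0.15 (SD, n = 2 arrays), 3.72-fold higher, with an adjusted p of 0.00606. The 10-spot probe whose sequence is given above was nearer to background. It read 115.8 and 90.4 in 2D culture against 261.1 and 257.7 in RTOC, and its log2 ratio was 1.34 ± 0.24 (adjusted p = 0.0177). In 2D culture it was well above background at 10 of 10 spots on the E14.5 array and at 4 of 10 on the E15.5 array, so its 2D level on the latter is only a bound. After normexp with loess its ratio was 0.35 and was not called (adjusted p = 0.130). The third probe read 26.4 and 57.2 in 2D culture against 62.8 and 76.1 in RTOC. It could not be told from background in the 2D channels and was not called (log2 ratio 0.83 ± 0.59, adjusted p = 0.0961). The 3 probes shared no stretch longer than 7 bases.

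Cdkn1c encodes p57, an imprinted inhibitor that is expressed from the maternal allele and restrains growth in the embryo. It had the largest increase of the 9 genes. The probe read 2313 (2D) and 8856 (RTOC) at E14.5, followed by 846.2 (2D) and 6254 (RTOC) at E15.5. The RTOC values were close to each other, whereas the 2D value of the E15.5 array was well below that of the E14.5 array. The ratio was 1.94 and 2.89 on the respective arrays, with a mean of 2.41 ± 0.67 (SD, n = 2 arrays), 5.32-fold higher and an adjusted p of 0.00596. With 1 array per stage, the gap between the stages was not tested.

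The INK4 genes were also divided. Cdkn2b and Cdkn2a, which are neighbours on chromosome 4, were lower in RTOC, while Cdkn2c, which lies elsewhere on that chromosome, was higher. Cdkn2b encodes p15, an inhibitor known for its induction by TGF-beta. Its probe read 16991 in 2D culture against 1908 in RTOC at E14.5, and 24126 against 2006.9 at E15.5. The 2D values exceeded both RTOC values on each array. The log2 ratio was -3.37 ± 0.31 (SD, n = 2 arrays), 10.3-fold lower, with an adjusted p of 0.00194, the lowest ratio among the 8 of these genes that were detected in both cultures.

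Cdkn2a gives rise to p16 and, from another first exon and reading frame, to p19ARF, which inhibits MDM2. A single probe, with 10 spots, represents it, and which of the transcripts the probe reads was not determined here. It read 237.2 (2D) and 26.2 (RTOC) at E14.5, followed by 273.1 (2D) and 26.9 (RTOC) at E15.5. On each array the 2D channel was well above background at all 10 spots and the RTOC channel at none, so the RTOC level is only a bound. The fitted log2 ratio of -3.26 ± 0.12 (adjusted p = 0.00185) is therefore no measure of size. After normexp background correction with loess it was -0.52 with an adjusted p of 0.0666, and with median centring -0.46 with an adjusted p of 0.121, and neither was called. In the former fit, with quantile adjustment of the average intensities, the log2 RTOC signal was 5.90 on the E14.5 array, equal to 2 decimals to the dimmest signal well above background there, and 5.87 on the E15.5 array, where the dimmest was 5.77. No fold difference is therefore given for Cdkn2a. The spots of this probe were also the most scattered, from -4.34 to -2.20 on the E14.5 array and from -4.01 to -2.91 on the E15.5 array.

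Cdkn2c encodes p18, another inhibitor of CDK4 and CDK6. Its brighter probe read 830.1 in 2D culture against 2465 in RTOC at E14.5, and 706.9 against 2527 at E15.5. The groups did not overlap, and the RTOC values were nearly equal. Its log2 ratio was 1.70 ± 0.19 (SD, n = 2 arrays), 3.26-fold higher, with an adjusted p of 0.00835. The other probe read 691.0 and 605.9 in 2D culture against 1914 and 1976 in RTOC and gave 1.59 ± 0.17 (adjusted p = 0.0102), but the probes share a stretch of 40 bases and are not separate evidence. The remaining INK4 gene, Cdkn2d, which encodes p19INK4d, gave 0.57 ± 0.01 and was not called (adjusted p = 0.143).

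**Figure D2:**
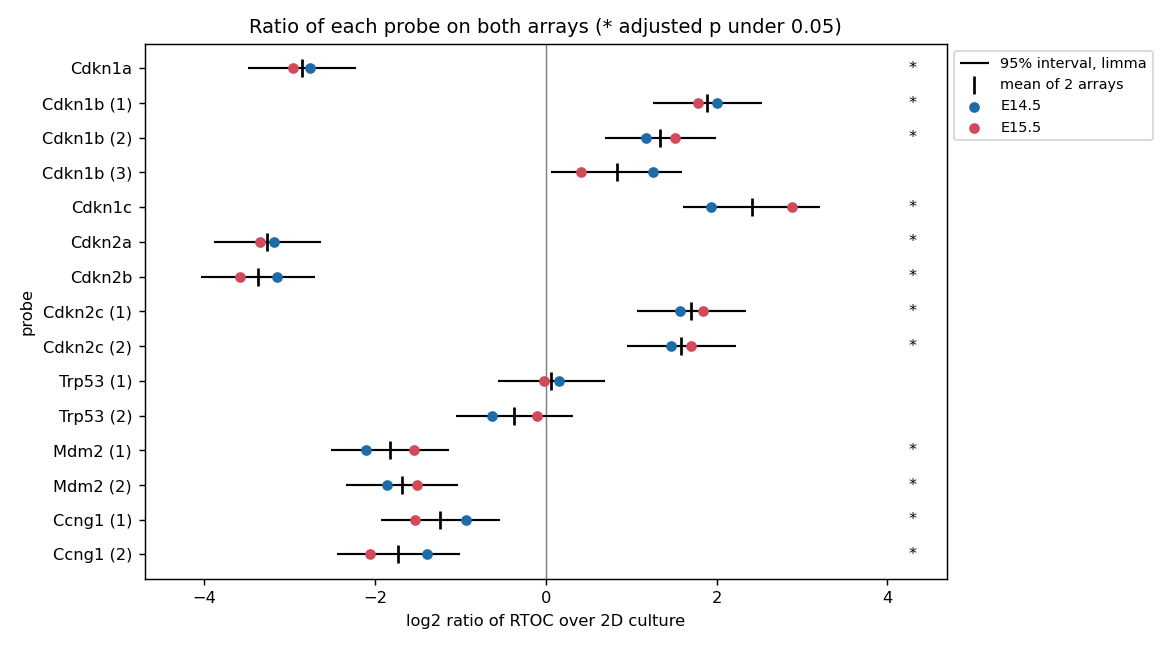
The log2 ratio of RTOC over 2D culture is plotted for each probe on the E14.5 array (blue) and the E15.5 array (red), with the mean of the 2 arrays (vertical tick) and its 95% interval from limma (line). Stars mark an adjusted p under 0.05. The intervals of both Trp53 probes include 0, and the third Cdkn1b probe lies above 0 without a star.

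Trp53 was well above background in both cultures with each of its 2 probes. The brightest probe read 3447 (2D) and 3835 (RTOC) at E14.5, followed by 5665 (2D) and 5578 (RTOC) at E15.5. The groups overlapped and the sign of the ratio differed between the arrays. The log2 ratio was 0.07 ± 0.12 (SD, n = 2 arrays) with a 95% interval of -0.57 to 0.70 and an adjusted p of 0.864. The second probe read 866.0 and 576.9 in 2D culture and 558.4 and 537.9 in RTOC, with RTOC the lower on each array. Its log2 ratio was -0.37 ± 0.38 with an interval of -1.05 to 0.32 (adjusted p = 0.353). Its 10 spots lay between -0.83 and -0.49 on the E14.5 array and between -0.22 and 0.02 on the E15.5 array. The median of both probes gave -0.15 (adjusted p = 0.662), opposite in sign to the brightest probe, so no direction can be given for Trp53 and a difference of the size of these intervals is not excluded.

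Mdm2 and Ccng1, both transcribed in response to p53, were lower in RTOC with each of their probes. The brighter Mdm2 probe read 17163 in 2D culture against 3988 in RTOC at E14.5, and 9130 against 3127 at E15.5. Both RTOC values were below both 2D values, and the 2D level was the one that varied more between arrays. The log2 ratio was -1.83 ± 0.40 (SD, n = 2 arrays), 3.54-fold lower, with an adjusted p of 0.00854. With normexp and median centring it was -1.56 and no longer called (adjusted p = 0.0554). The 10-spot probe, which shares no stretch over 6 bases with it, read 3269 and 1653 in 2D culture against 901.0 and 580.0 in RTOC. It gave -1.69 ± 0.25 (adjusted p = 0.00905), with spots from -1.93 to -1.79 and from -1.62 to -1.43 on the respective arrays, and with normexp and median centring -1.08 (adjusted p = 0.0654).

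Ccng1 encodes cyclin G1, which recruits a phosphatase to MDM2. The brighter probe read 16590 (2D) and 8665 (RTOC) at E14.5, followed by 18410 (2D) and 6371 (RTOC) at E15.5. RTOC was the lower on each array, with no overlap. With this probe the log2 ratio was -1.23 ± 0.42 (SD, n = 2 arrays), 2.35-fold lower, with an adjusted p of 0.0274. The other probe read 8605 and 6610 in 2D culture against 3285 and 1580.0 in RTOC, and its log2 ratio was -1.73 ± 0.48 (adjusted p = 0.0115).

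**Figure D3:**
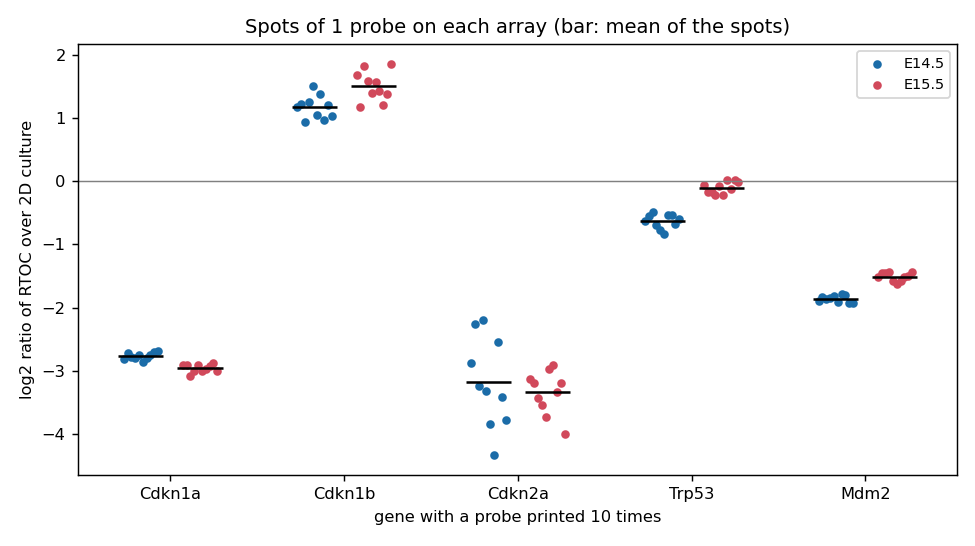
The log2 ratio of RTOC over 2D culture is plotted for each of the 10 spots of the 5 probes printed 10 times, in blue for the E14.5 array and in red for the E15.5 array, with a bar at the mean of the spots. Spots of 1 array are technical repeats. The spots of Cdkn1a and Mdm2 are tight, those of Cdkn2a, which was not well above background in RTOC, spread over more than 1 log2 unit, and the spots of the arrays do not overlap for Cdkn1a, Trp53 and Mdm2.

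Between spots of 1 array the SD was 0.05 and 0.06 for Cdkn1a, and 0.05 and 0.07 for Mdm2. For Trp53 it was 0.11 and 0.09, while the array means were 0.53 apart. For Cdkn1b it was 0.18 and 0.23, and for Cdkn2a 0.71 and 0.34.

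Other genes known as p53 targets were lower more often than higher. Of 24 such genes tested, 12 were called lower and 2 higher, with a median log2 ratio of -1.01 against 0.00 over all genes tested. These 14 calls were 58.3% of the list, against 28.2% of all genes. Tigar was not detected in RTOC, and of the 23 genes detected in every channel 11 were lower. The lowest was Pmaip1, which encodes the death-promoting protein NOXA. It read 53901 and 66909 in 2D culture against 3008 and 2188 in RTOC, a log2 ratio of -4.55 ± 0.55 (adjusted p = 0.00159). Eda2r, a receptor of the TNF receptor family, followed with -2.82 ± 0.24 (adjusted p = 0.00247). The increases were those of Sesn1, which encodes the stress protein sestrin 1 (2.71 ± 0.38, adjusted p = 0.00296), and Ddb2, which acts in the recognition of ultraviolet damage (1.23 ± 0.69, adjusted p = 0.0409). All 3 Sesn1 probes were above 2 on the log2 scale, with values of 2.40 and 2.44 for the dimmer probes.

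**Figure D4:**
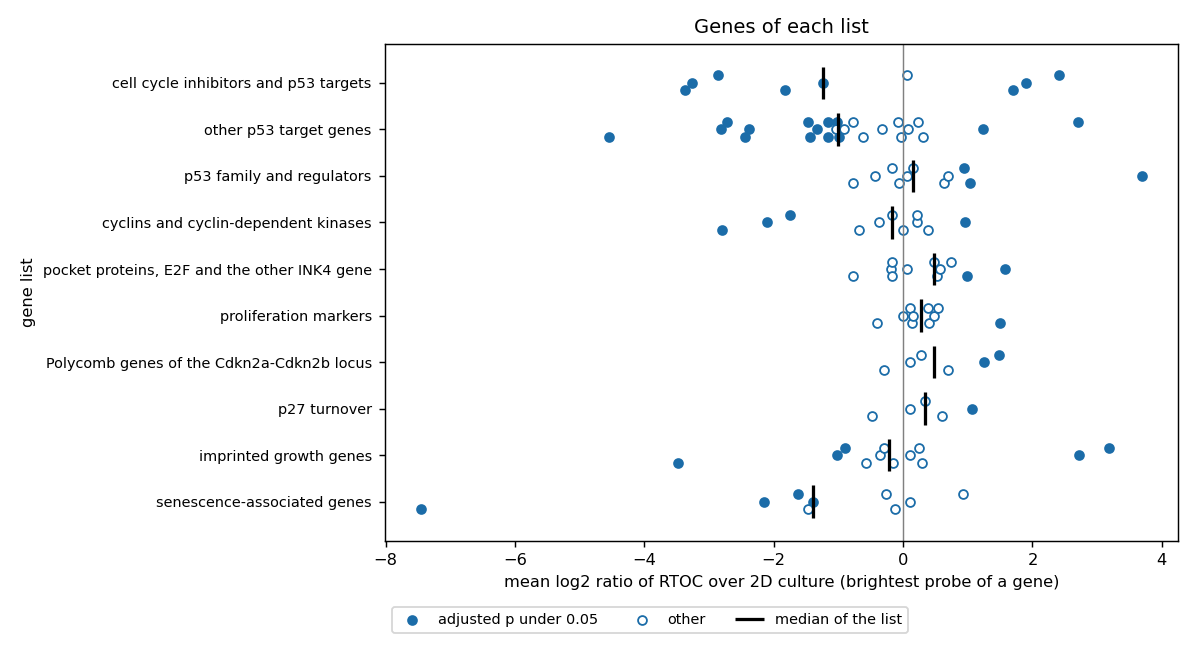
Each point is the mean log2 ratio (RTOC over 2D) of 1 gene, from its brightest probe, grouped by gene list, filled where the adjusted p was under 0.05, and the bar is the median of the list. The 9 genes of the first row fall on both sides of 0, and the other p53 target genes lie mostly below 0, with a median of -1.01.

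Of the p53 family and regulators, 11 of 12 genes were tested, since no probe was named as Atr. None was called lower and 3 were called higher, 27.3% of those tested and close to the 28.2% of all genes, with a median of 0.15. Trp63, the p53 relative that marks stratified and thymic epithelium, read 1164 and 2573 in 2D culture against 20738 and 24362 in RTOC, a log2 ratio of 3.70 ± 0.64 (adjusted p = 0.00226), and 1.87 with its other probe. Chek1, a kinase of the DNA damage checkpoint, gave 1.03 ± 0.48 (adjusted p = 0.0478), and 0.67 with its other probe. The third was Rchy1, a ubiquitin ligase for p53, which the rule for naming genes did not pick and which is named as the remaining call (0.94 ± 0.06, adjusted p = 0.0425). The other Rchy1 probe gave 0.49.

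The partners of the inhibitors were measured as well. Of 11 cyclins and CDKs, 3 were called lower and 1 higher (36.4%), with a median of -0.17. Ccnd1 read 6573 and 9473 in 2D culture against 1070.2 and 1195 in RTOC, a log2 ratio of -2.80 ± 0.26 (adjusted p = 0.00254). Ccnd2 gave -2.10 ± 0.03 (adjusted p = 0.00432), and the remaining decrease, outside the rule, was that of Cdk6 (-1.74 ± 0.11, adjusted p = 0.0074). INK4 proteins oppose the complexes that cyclins D1 and D2 form with CDK4 and CDK6. Ccna2, a cyclin of S and G2 phase, was higher (0.96 ± 0.27, adjusted p = 0.0454), and Ccnd3 and Cdk4 were not called, at 0.22 and -0.37.

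Of 11 pocket protein, E2F and INK4 genes, including Cdkn2d, 2 were called higher and none lower (18.2%), with a median of 0.48. They were E2f2 (1.58, equal on both arrays to 2 decimals, adjusted p = 0.00971) and Rb1, the retinoblastoma gene (0.99 ± 0.07, adjusted p = 0.0365). Of 10 proliferation markers only Mki67 was called (1.50 ± 0.24, adjusted p = 0.0129), with a median of 0.27 over the list and single values from -0.40 upwards. Mcm2 and Mcm3, subunits of the replicative helicase, were below 0 on the E14.5 array (-0.98 and -0.69) and above 0 on the E15.5 array (0.17 and 0.67), and neither was called.

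Lists tied to particular inhibitors held Polycomb genes, which silence the Cdkn2a and Cdkn2b locus, and genes grouped under the turnover of p27. Of 6 Polycomb genes 2 were called higher, Cbx7 (1.49 ± 0.11, adjusted p = 0.012) and Bmi1 (1.25 ± 0.21, adjusted p = 0.0209), although the other Bmi1 probe gave -0.21. These were 33.3% of the list, and the median was 0.48. Of the 5 genes grouped under p27 turnover, Fbxw7 alone was called (20%), and it does not encode the subunit that recognises p27. It gave 1.06 ± 0.05 (adjusted p = 0.0305), and its other probe gave 0.57. Skp2, which encodes the subunit that recognises phosphorylated p27, gave 0.11 ± 0.89 (adjusted p = 0.835).

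Cdkn1c is one of several imprinted genes that act on growth, and of 12 others 2 were called higher and 3 lower (41.7%), with a median of -0.22. Dlk1 and Mest, expressed from the paternal allele, gave 3.18 ± 0.67 (adjusted p = 0.00293) and 2.71 ± 1.08 (adjusted p = 0.00848). Phlda2 lies in the same imprinted cluster as Cdkn1c and is likewise expressed from the maternal allele. It read 2524 and 681.9 in 2D culture against 230.5 and 60.1 in RTOC, a log2 ratio of -3.48 ± 0.04 (adjusted p = 0.00172), opposite in sign to Cdkn1c. Igf2 gave -1.02 ± 0.32 (adjusted p = 0.0407).

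Of 9 genes associated with cellular senescence, 4 were called lower and none higher (44.4%), with a median of -1.40. Il6 met the detection rule through its 2D channels alone, and of the 7 genes detected in every channel 3 were called lower. Il6, a cytokine of the senescence secretome, read 8916 and 3679 in 2D culture and was not well above background in RTOC on either array. Hmga2, a chromatin protein of the high mobility group, read 54077 and 9108 against 7077 and 3524, a log2 ratio of -2.15 ± 1.11 (adjusted p = 0.0176). Lmnb1, the lamin that is lost in senescent cells, gave 0.11 ± 0.82 and was not called (adjusted p = 0.839).

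Markers of the cell types that the cultures could hold also differed between the cultures. Of 11 thymic epithelial markers, all well above background in both cultures, 7 were called higher in RTOC and 1 lower, and their summed intensity was 288407 and 591413 in 2D culture against 1071670 and 1066080. Ccl25 alone read 1750 and 1892 in 2D culture against 269515 and 188840 in RTOC. Krt8 (130648 and 378851) and Krt18 (109083 and 158714) made up most of the 2D sums. Epcam (-0.70), Krt8 (0.28) and Krt18 (0.69) were not called, and Krt8 differed in sign between the arrays. Of 7 fibroblast markers 3 were higher and 3 lower, with sums of 428394 and 324670 against 270969 and 289472. Of 5 smooth muscle and pericyte markers 3 were lower and 1 higher, with sums of 562066 and 493137 against 65351 and 40995. Most of the 2D sums came from Acta2 (277462 and 253015) and Tagln (261905 and 226521), which were lower in RTOC, as was Cnn1. Rgs5 was the higher marker (3.25), and Myh11 was not called (0.17).

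All calls in the remaining lists were higher in RTOC. Of 5 endothelial markers 4 were higher, with sums of 1469 and 555.6 against 6376 and 9892. Pecam1, Cdh5 and Tek were detected in the RTOC channels alone and so had to differ to be tested, and of the 2 markers detected in every channel 1 was called. Of 5 macrophage markers 4 were higher, with sums of 67651 and 56341 against 178050 and 220477. Of 7 thymocyte and T cell markers 4 were tested and 2 were higher, with sums of 1360 and 1607 against 5330 and 3360. The 2 were Ptprc, which read 3061 and 2458 of the RTOC sums, and Cd3g, detected in 2D culture on 1 array only. Cd3e (-0.08) and Lck (0.30) were not called, and of the 3 markers detected in every channel 1 was called. Rag1, Cd4 and Cd8a were not well above background in any channel on at least 1 array. The part of these cell types in the ratios of the 9 genes was not tested.

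**Figure D5:**
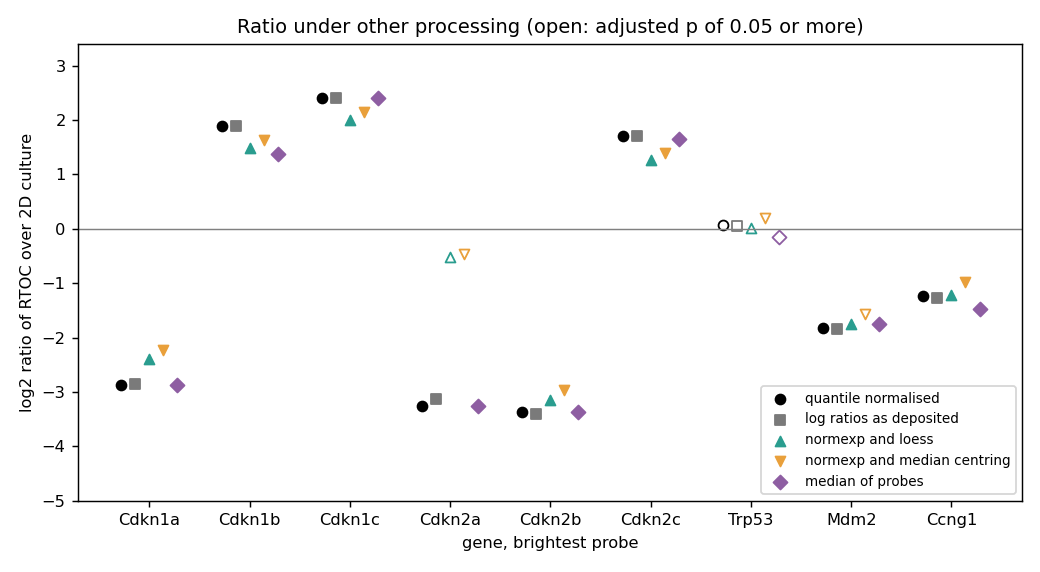
For each gene the log2 ratio (RTOC over 2D) is plotted under 5 ways of processing, which are quantile normalisation with the brightest probe, the log ratios as deposited, normexp background correction with loess, normexp with median centring, and the median of the probes of a gene. Filled symbols have an adjusted p under 0.05. For 8 genes all symbols stay on 1 side of 0, those of Cdkn2a move towards 0 after normexp, and those of Trp53 lie on both sides.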

How the data were processed

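The members and gene lists were chosen with earlier results of these data known. Per the labels, RNA was hybridised to Agilent two-colour arrays, and the authors deposited, per spot, mean signal, local background and processed signal (background-subtracted and dye-normalised within the array) as intensity, and a log10 ratio of Cy5 over Cy3. The deposited series values are that log10 ratio of processed signals. Feature Extraction is version 9.1.3.1 in the file headers and 11.5.1.1 in the submitters' processing notes. The study's methods state quantile normalisation, and name the two-tailed Student's test for statistical comparison without saying whether it covers the arrays (here, the methods' test).

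Here control spots and outlier spots (5 on the E14.5 and 1 on the E15.5 array) were left out, processed signals were quantile normalised over 4 channels, spots of a probe were averaged, and log2 ratios were tested with limma 3.58.1 in R 4.3.3 (lmFit with an intercept, eBayes, two-sided, Benjamini-Hochberg, threshold 0.05). The test took probes with more than 50% of their spots well above background in 1 or both channels of each array. A gene was represented by its brightest tested probe. Of 41174 probes, 22951 were named by accession, 6659 by symbol and 3109 by an older symbol in RefSeq's table, and 8455 kept the files' name. Well above background were between 53.1% and 60.9% of probes per channel, and the number of arrays limits precision. The lobes of the arrays were taken at different embryonic days, and the number of litters behind each is not given. The p-values therefore measure the spread between these samples, with stage and days of organ culture in it. An exact sign-flip test over 2 arrays cannot go below 0.5. A gene of the senescence list is not reported here and was left out of its counts. All probes of the 9 genes were named, and of each other gene list the 2 highest and 2 lowest called genes, while marker lists are given by counts and sums. Genes given beside these (Rchy1, Cdk6, Cdkn2d, Ccnd3, Cdk4, Mcm2, Mcm3, Skp2, Lmnb1, Tigar, Pecam1, Tek and the other marker genes given with a value) were chosen after their values were seen. The limma fit alone was tested on simulated ratios, drawn from its own fitted spread, and the steps before it were not simulated. Alternatives were normexp (offset 50) with loess, Aquantile or median centring, the deposited ratios and series values, other detection filters, outliers kept, trend and robust fitting, no replicate block, the methods' test, the median of probes, and each array left out.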

Additional observations from a re-analysis of the deposited data

How the results depend on the processing

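The direction of the 8 called genes was the same in every alternative that gave a value, and Cdkn2a had none where all channels had to be detected. Trp53, never called, changed sign to -0.15 with the median of its probes. Of all probes, 6833 were called, 3709 with normexp and loess (with or without Aquantile), 2903 with normexp and median centring, 4030 with no replicate block, and 3537 by the methods' test unadjusted. Normexp with median centring moved the median of all probes to 0.12 and the share of calls that were higher from 52.9% to 76.4%. Of the 15 probes of the 9 genes, 12 were called, and 8 to 12 under the alternatives of normalisation, filter and fit other than those named next. The methods' test called 6 probes and 5 genes unadjusted, and 0 probes and 0 genes after adjustment, among 0 of all probes. With no filter on dim probes limma likewise called 0 probes of the array, 0 of the 15 and 0 of the 9 genes, while 10666 probes had an unadjusted p under 0.05. With no replicate block 11 probes and 8 genes were called. The pairing of channels is that of the array they share. Leaving out an array leaves the other array's ratio with no test. Signal over background limits Cdkn2a and the dimmest Cdkn1b probe, for which no fold difference is given.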
